A study of Ovis aries with 16 samples.

Results

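Complex I, the NADH:ubiquinone oxidoreductase of the mitochondrial inner membrane, was followed through the RNA of 6 of its nuclear-encoded subunits: *NDUFA5*, *NDUFA7*, *NDUFS4*, *NDUFA3*, *NDUFB5* and *NDUFB8*. The genes were chosen by the study's own list of genes called different between hypoxic and control livers, which was drawn up from these same libraries and which pairs gene identifiers with symbols. Of 37 nuclear-encoded subunits looked for in that list, 6 had an identifier, and they are 6 of the 26478 genes in the count table. All 6 passed the minimum of 250 reads in at least 8 livers, as did 8580 genes in all. Because the difference between hypoxic and control livers chose them, their levels and fold changes in that contrast are a description and support nothing. The other subunits have no symbol in the sources used here, so the genes just outside the study's threshold were not analysed.

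The livers came from singleton fetuses of Welsh Mountain ewes that spent 30 days of late gestation either in normoxia (CON, 5 male and 4 female fetuses) or at 10% inspired O2 (HOX, 3 male and 4 female fetuses), and the question was what chronic hypoxia does to the fetal liver. Tissue was taken at about 0.9 of gestation, for which the sample labels give about day 130 and the study's methods a later day. Each of the 16 libraries held polyA-enriched RNA from the whole liver of 1 fetus. Total counts ranged from 24065959 to 29353692 in CON and from 23955166 to 33952503 in HOX, and levels are given as CPM, the reads of a gene scaled to a common library size after TMM normalization. In bulk RNA of this kind, fewer cells of a type and less RNA per cell cannot be told apart.

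One library stood apart from the others. HOX animal 1, a female fetus, scored 64.4 on the first principal component of log2 CPM, which carried 25.6% of the variance, while the other 15 livers lay between -15.6 and 6.23. It also had the most counts of the 16 libraries. Values of HOX against CON and of sex are therefore given with and without HOX animal 1.

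Complex I takes electrons from NADH, passes them to ubiquinone and pumps protons across the inner membrane, and it is the largest enzyme of the respiratory chain. It is L-shaped, with a peripheral arm in the matrix that holds the redox centres and a membrane arm that moves the protons. Its core subunits are shared with bacteria, and the accessory subunits surrounding them in mammals serve assembly and stability. All 6 genes described here encode accessory subunits, *NDUFA5*, *NDUFA7* and *NDUFS4* in the peripheral arm and *NDUFA3*, *NDUFB5* and *NDUFB8* in the membrane arm. Much of the NADH that liver mitochondria make from their fuels is reoxidized at complex I.

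*NDUFA5* (ENSOARG00020003833), a small subunit of the part of the arm that binds ubiquinone, had a lowest, median and highest level of 9.67, 12.4 and 15.8 CPM in the 9 CON livers. In HOX, its lowest, median and highest levels were 6.75, 10.0 and 27.8 CPM. The highest of these was HOX animal 1, which lay above every CON liver, whereas the other 6 HOX livers lay below the CON mean of 12.1 ± 1.76 CPM (SD, n = 9) and overlapped with the lower CON livers. Their mean was 9.48 ± 1.57 CPM (SD, n = 6). The fitted log2 fold change of HOX against CON was -0.0021 ± 0.229 (SE) over 16 livers and -0.36 ± 0.123 without HOX animal 1. With 16 livers its sign depended on the scaling, since it was 0.015 with DESeq2 size factors and 0.065 with total counts, and without HOX animal 1 it was negative under each of these scalings. *NDUFA5* was counted thinly, with 205 to 955 reads per liver, and reached 250 reads in 13 of the 16 livers.

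*NDUFA7* (ENSOARG00020013027), another accessory subunit of the ubiquinone-binding part, ranged in CON from 16.2 to 30.7 CPM with a median of 21.1. In HOX it ranged from 13.4 to 40.8 CPM with a median of 15.7. HOX animal 1 was again the highest liver and CON animal 6 the next, and 4 of the other 6 HOX livers lay below the lowest CON liver. The mean was 22.0 ± 4.47 CPM (SD, n = 9) in CON and 16.4 ± 2.73 CPM (SD, n = 6) in HOX without animal 1. The log2 fold change was -0.15 ± 0.208 over 16 livers and -0.43 ± 0.139 without HOX animal 1.

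*NDUFS4* (ENSOARG00020003246) lies near the NADH-oxidizing end of the peripheral arm, and its mutations cause Leigh syndrome in humans. Its CON levels ran from 31.6 to 45.0 CPM around a median of 39.8, and its HOX levels from 29.0 to 47.2 CPM around a median of 31.7. CON animals 2 and 7 had levels like those of most HOX livers, and 2 of the 6 HOX livers other than animal 1 lay below the lowest CON liver. By a narrow margin over CON animal 6, HOX animal 1 had the highest level. The mean was 39.0 ± 4.89 CPM (SD, n = 9) in CON and 32.1 ± 2.49 CPM (SD, n = 6) in HOX without animal 1. The log2 fold change was -0.19 ± 0.109 over 16 livers and -0.28 ± 0.0916 without HOX animal 1.

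In the membrane arm, *NDUFA3* (ENSOARG00020003553), which encodes a small protein near the junction of both arms, had CON levels of 32.4 to 60.3 CPM with a median of 44.3. Its HOX levels were 25.2 to 78.1 CPM with a median of 31.9. CON animal 6 stood above the other CON livers and HOX animal 1 above all, and 4 of the remaining 6 HOX livers lay below the lowest CON liver. The mean was 43.8 ± 7.61 CPM (SD, n = 9) in CON and 32.6 ± 6.38 CPM (SD, n = 6) in HOX without animal 1. The log2 fold change was -0.16 ± 0.199 over 16 livers and -0.43 ± 0.131 without HOX animal 1.

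*NDUFB5* (ENSOARG00020009071) encodes a subunit that spans the inner membrane in the proton-pumping arm. It had 9.11, 12.0 and 14.8 CPM as the lowest, median and highest CON levels, and 7.27, 8.83 and 21.6 CPM in HOX. The top value, in HOX animal 1, was far above all other livers, and 4 of the other 6 HOX livers were below the lowest CON liver while HOX animals 4 and 6 lay within the CON range. The mean was 12.0 ± 2.03 CPM (SD, n = 9) in CON and 9.11 ± 1.62 CPM (SD, n = 6) in HOX without animal 1. The log2 fold change was -0.14 ± 0.200 over 16 livers and -0.40 ± 0.136 without HOX animal 1. *NDUFB5* had the fewest reads of the 6 genes, with 171 in HOX animal 5 and 190 in HOX animal 7, and it reached 250 reads in 14 of 16 livers.

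*NDUFB8* (ENSOARG00020023960) sits in the distal membrane arm, and its protein is widely used on blots as a marker of assembled complex I because it is lost when the complex does not form. Its CON levels ran from 60.3 to 84.0 CPM with a median of 69.2, and its HOX levels from 53.1 to 85.1 CPM with a median of 60.5. At the top, HOX animal 1 was level with CON animal 6. The other 6 HOX livers lay close together, all below 7 of the 9 CON livers, and 3 of them were below the lowest CON liver. The mean was 71.0 ± 7.83 CPM (SD, n = 9) in CON and 59.1 ± 3.38 CPM (SD, n = 6) in HOX without animal 1. The log2 fold change was -0.18 ± 0.10 over 16 livers and -0.26 ± 0.0807 without HOX animal 1. The study also measured complex I protein in these livers by blot, which was not analysed here, so no RNA value is set against a protein value.

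**Figure D1:**
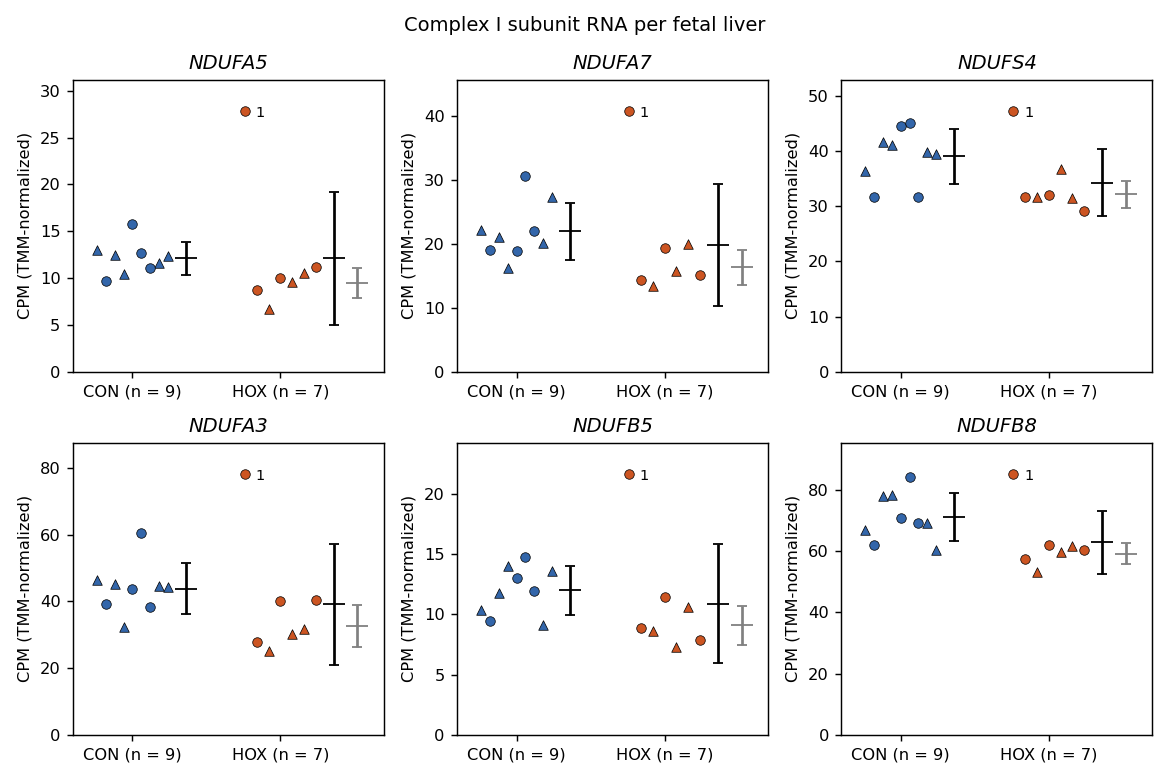
RNA level of each complex I subunit in every fetal liver, in TMM-normalized CPM on a linear axis from 0, with peripheral arm genes in the upper panels and membrane arm genes in the lower panels. Triangles are male and circles female fetuses, black bars are mean ± SD of CON (n = 9) and HOX (n = 7), grey bars are mean ± SD of HOX without animal 1 (n = 6), and the circle marked 1 is HOX animal 1, the highest of 16 livers in each panel.

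Read across the genes, HOX animal 1 and the other HOX livers lay on opposite sides of the CON mean. HOX animal 1 was the highest of the 16 livers for 6 of 6 genes, a place it held for 21.9% of the 8580 tested genes. Its level was 1.20 to 2.29 times the CON mean. The other 6 HOX livers were below the CON mean in 36 of 36 pairings of liver and gene, against 53.5% of such pairings over all tested genes, and below the lowest CON liver in 20 of 36, against 11.9%. All 6 livers lay below the CON mean for 10.8% of tested genes. High counts below CON follow from how the genes were chosen. The place of HOX animal 1 rests on 1 library, and nothing is read from any of these counts. For none of the 6 genes did the other 6 HOX livers fall clear of CON, as they did for 0.198% of the tested genes. The mean log2 CPM over the 6 genes was 4.75 ± 0.15 (SD, n = 9) in CON, 4.39 ± 0.15 (SD, n = 6) in HOX without animal 1 and 5.48 in HOX animal 1. HOX animal 3 had the lowest mean of the 16 livers at 4.17, and it was the lowest liver for 4 of the 6 genes. The share of all tested genes for which it was the lowest is not given here, and nothing is read from that count.

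The fitted fold change was below 0 for 6 of 6 genes with 16 livers, *NDUFA5* among them with a sign that other scalings turned, against 48.8% of tested genes, and for 6 of 6 without HOX animal 1, against 51.8%. The median over the 6 genes was -0.15 with 16 livers, and -0.38 without HOX animal 1. Over all tested genes the medians were 0.0054 and -0.0085. Without HOX animal 1 the fitted differences corresponded to levels 16.7% to 25.7% lower than in CON. At an adjusted *P* under 0.15, edgeR called 0 of the 6 genes with 16 livers (0.0583% of tested genes called) and 0 without HOX animal 1 (0.141%). At an unadjusted *P* under 0.05 the edgeR numbers were 0 and 6 of the 6, against 1022 of 8580 and 1333 of 8490 tested genes. With 16 livers limma-voom also called 0 of the 6, but had 6 of the 6 at an unadjusted *P* under 0.05, against 1342 of 8580 tested genes. DESeq2 called 0 of the 6 with 16 livers, where it called 2.76% of tested genes in either direction and 1.61% as lower. Without HOX animal 1 it called 6 of 6 as lower, where it called 6.16% in either direction and 3.56% as lower. Nothing is read from these counts, since the contrast chose the genes.

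**Figure D2:**
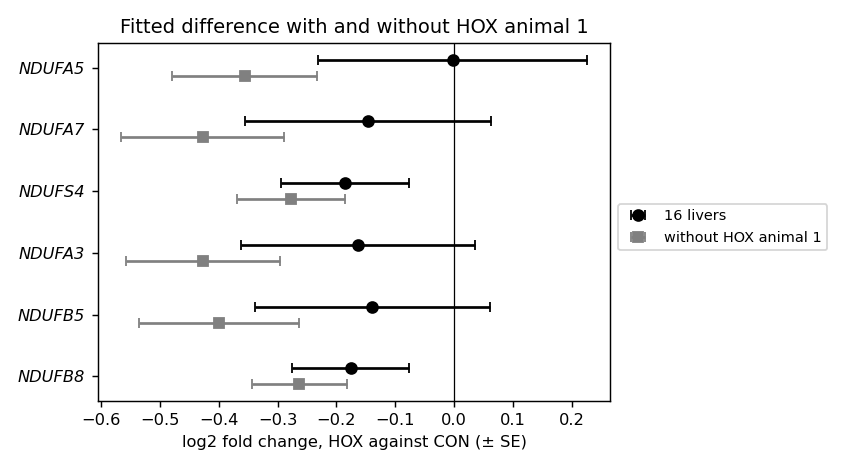
Fitted log2 fold change of HOX against CON for each subunit, with bars of ± 1 SE from edgeR, over 16 livers (black circles) and without HOX animal 1 (grey squares). The values lie between -0.19 and -0.0021 with 16 livers and between -0.43 and -0.26 without HOX animal 1.

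The spread among CON livers entered the choice of the genes only through the error of the contrast, and it is given as a description. The coefficient of variation over 9 CON livers was 11.0% for *NDUFB8*, 12.6% for *NDUFS4*, 14.5% for *NDUFA5*, 16.9% for *NDUFB5*, 17.4% for *NDUFA3* and 20.3% for *NDUFA7*. Counting error alone, from the mean number of reads, was 2.33% to 5.68%, below the spread between livers for each gene. That spread also holds variation from library preparation, which was not measured apart from it. CON animal 6, a female fetus, had the highest CON level for 5 of the 6 genes, and CON animal 5 the highest for *NDUFA5*.

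Within CON, the 6 genes were compared in all 15 pairs by the log2 CPM of the 9 livers. Pearson correlations ranged from 0.039 to 0.814 with a median of 0.344, and 15 of 15 were positive, against 49.7% of all pairs of tested genes. Spearman correlations ranged from -0.13 to 0.717 and 12 of 15 were positive, against 48.9%. The pairs share genes, so their signs are not independent. The highest Pearson correlation was between *NDUFA3* and *NDUFA7*, with r = 0.814 (exact permutation *P* = 0.00977, adjusted over 15 pairs *P* = 0.147) and a Spearman rho of 0.683 (exact permutation *P* = 0.0503, adjusted *P* = 0.294). It was 0.239 without the 2 livers farthest from the median of *NDUFA3*, a step that also narrows the range, and 0.633 without CON animal 6 alone, so its size rests in part on those livers. *NDUFA5* and *NDUFS4* came next by Pearson correlation, though not by Spearman, with r = 0.638 (exact permutation *P* = 0.0635, adjusted *P* = 0.402), a rho of 0.550 (exact permutation *P* = 0.133, adjusted *P* = 0.398), r = 0.250 without the 2 farthest livers and r = 0.646 without CON animal 6. *NDUFB8* and *NDUFS4*, of different arms, had r = 0.613 (exact permutation *P* = 0.0803, adjusted *P* = 0.402), a rho of 0.717 (exact permutation *P* = 0.0369, adjusted *P* = 0.294) r = 0.690 without the 2 farthest livers and r = 0.491 without CON animal 6. No pair passed an adjusted *P* of 0.05 by either coefficient. Without CON animal 6, 11 of the 15 Pearson correlations were positive, against 49.7% of all pairs of tested genes over the same 8 livers, and their median was 0.249. HOX animal 1 takes no part in these values. Over the 6 HOX livers without animal 1, the 15 Pearson correlations ranged from -0.36 to 0.941, 12 were positive, against 49.8% of all pairs of tested genes, and the smallest exact permutation *P* adjusted over the 15 pairs was 0.160 (0.250 for Spearman). There *NDUFA3* and *NDUFA7* had r = 0.569 (exact permutation *P* = 0.231), *NDUFA5* and *NDUFS4* r = -0.18 (exact permutation *P* = 0.697) and *NDUFB8* and *NDUFS4* r = 0.00041 (exact permutation *P* = 1).

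Fetal sex did not enter the choice of the genes and could be tested. Male livers were compared with female livers in a model with treatment, over 8580 genes. The log2 difference of male against female was negative for all 6 genes, as for 52.7% of tested genes, from -0.35 ± 0.190 (SE) for *NDUFA3* to -0.0027 ± 0.112 for *NDUFS4*. By edgeR 0 of the 6 passed (adjusted *P* = 0.974 for 5 genes and 0.999 for *NDUFS4*), when 0.0233% of tested genes were called. At an unadjusted *P* under 0.05 edgeR had 0 of the 6 among 267 genes, and DESeq2 called 7 genes, none of the 6, or 9 without HOX animal 1, again none of the 6. HOX animal 1 is female, and without it the differences lay between -0.17 ± 0.124 for *NDUFA3* and 0.079 ± 0.0903 for *NDUFS4*, with an edgeR adjusted *P* of 1 for each gene. Among CON livers alone they lay between -0.096 ± 0.162 and 0.045 ± 0.133.

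The difference between HOX and CON was also set against sex, by the interaction of sex and treatment. Among male fetuses the 6 genes had a mean log2 CPM of 4.73 ± 0.07 (SD, n = 5) in CON and 4.35 ± 0.17 (SD, n = 3) in HOX. Among female fetuses it was 4.76 ± 0.24 (SD, n = 4) in CON and 4.69 ± 0.53 (SD, n = 4) in HOX, or 4.43 ± 0.14 (SD, n = 3) without HOX animal 1. The interaction was between -0.65 ± 0.436 (SE) for *NDUFA5* and -0.13 ± 0.231 for *NDUFS4*, with an edgeR adjusted *P* of 0.999 for each of the 6 genes. By edgeR 0% of tested genes were called, 281 had an unadjusted *P* under 0.05, none of the 6 among them, and DESeq2 called 6 genes with 16 livers and 6 without HOX animal 1, in neither case one of the subunits. Without HOX animal 1 the interaction lay between -0.21 ± 0.257 for *NDUFA3* and 0.098 ± 0.292 for *NDUFA7*. In fits within 1 sex, the median log2 fold change over the 6 genes was -0.40 in male fetuses, 0.023 in female fetuses and -0.31 in female fetuses without HOX animal 1. The means and medians within a sex belong to the contrast that chose the genes, so they are a description from which nothing is read.

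Complex I also needs subunits encoded in mitochondrial DNA and factors that assemble it. Of 7 subunits encoded in mitochondrial DNA 1 had an identifier, of 21 assembly factors 1, and these too came from the study's list and are no independent evidence of direction. *ND4*, a proton-pumping core subunit of the membrane arm, had 2200 ± 378 CPM (SD, n = 9) in CON, 1692 ± 236 CPM (SD, n = 6) in HOX without animal 1 and 1473 CPM in HOX animal 1, with a log2 fold change of -0.41 ± 0.120 over 16 livers and -0.38 ± 0.123 without HOX animal 1. The same liver, highest for the nuclear subunits, was at the bottom for *ND4*, nearly level with HOX animal 3 at 1476 CPM, which had the lowest mean of the nuclear subunits. The log2 difference between *ND4* and the mean of the 6 nuclear genes was 6.34 ± 0.35 (SD, n = 9) in CON and 6.32 ± 0.21 (SD, n = 6) in HOX without animal 1, and 5.05 in HOX animal 1. *NDUFAF1*, an assembly factor of the membrane arm, had 16.0 ± 2.33 CPM (SD, n = 9) in CON and 11.8 ± 2.11 CPM (SD, n = 6) in HOX without animal 1, and HOX animal 1, at 15.3 CPM, lay near the CON mean. Its log2 fold change was -0.39 ± 0.126 over 16 livers and -0.45 ± 0.125 without HOX animal 1.

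Of the other respiratory chain complexes, 0 of 39 nuclear-encoded subunits had an identifier, which means only that the study's list did not hold their symbols. The genes found came from that list too, so their direction is no independent evidence. *COX1* and *COX3*, the core subunits of complex IV found among 6 listed genes of mitochondrial DNA, had log2 fold changes of -0.58 ± 0.155 and -0.44 ± 0.119 over 16 livers and of -0.53 ± 0.156 and -0.47 ± 0.123 without HOX animal 1. Of 21 complex IV assembly factors 3 were found. *COX15*, which acts in haem A synthesis, had -0.28 ± 0.103 and, without HOX animal 1, -0.32 ± 0.102. *PET100* had -0.40 ± 0.147 and -0.45 ± 0.153. *HIGD2A*, like the nuclear complex I genes, had its highest level in HOX animal 1, at 51.7 CPM against 33.7 ± 4.87 CPM (SD, n = 9) in CON and 26.2 ± 4.03 CPM (SD, n = 6) in HOX without animal 1, and had -0.17 ± 0.161 and -0.36 ± 0.114.

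The liver's cell types were read from marker lists, again only through genes in the study's list. Hepatocyte markers (11 of 15 found, *FGG* the most abundant) summed to 26834 ± 3177 CPM (SD, n = 9) in CON, 19943 ± 2849 CPM (SD, n = 6) in HOX without animal 1 and 15626 CPM in HOX animal 1, the lowest of the 16 livers. *FGG* alone had 8258 ± 1401 CPM in CON, 6576 ± 707 CPM in HOX without animal 1 and 7111 CPM in HOX animal 1. HOX animal 1 was the lowest of the 16 livers for *VTN*, *C9*, *F7*, *CPN2*, *LECT2*, *ASGR2*, *FAH* and *SPP2*. Among these, *VTN* was at 3220 CPM against 5965 ± 1326 in HOX without animal 1, and *LECT2* at 163 against 576 ± 80.2. HOX animal 1 was not the lowest for *FGG*, *AGT* or *AFP*. *AGT* was at 3252 CPM against 3472 ± 1075 in HOX without animal 1, and *AFP* at 95.1 against 72.4 ± 44.8. The share of all tested genes for which HOX animal 1 was the lowest liver is not given here. Nothing is read from these places. Hepatocyte RNA was abundant in each liver, as the tissue label has it, and in HOX animal 1 its sum was lowest where the nuclear complex I genes were highest. Erythroid markers (4 of 8 found, *ANK1* the most abundant) summed to 297 ± 115 CPM in CON, 516 ± 185 CPM in HOX without animal 1 and 259 CPM in HOX animal 1. *ANK1*, a red cell membrane protein, had 143 ± 57.6, 242 ± 90.0 and 113 CPM in the same order. *CPOX*, an enzyme of haem synthesis, was at 76.6 CPM in HOX animal 1 against a CON mean of 52.2 ± 24.6, while *EPOR* was at 8.68 against 13.0 ± 6.96 and *TFRC* at 60.2 against 88.5 ± 40.9. The sums of HOX without animal 1 overlapped with those of CON. Since the markers found are those the study called between HOX and CON, the direction of either sum is no independent evidence of cell makeup.

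Other cell types were covered by few genes. *CD163*, 1 of 3 macrophage markers, had 323 ± 58.1 CPM (SD, n = 9) in CON, 239 ± 54.6 CPM (SD, n = 6) in HOX without animal 1 and 61.9 CPM in HOX animal 1, the lowest of the 16 livers. *CD34*, 1 of 3 endothelial markers, had 13.7 ± 6.97 CPM in CON, 29.4 ± 13.6 CPM in HOX without animal 1 and 21.3 CPM in HOX animal 1. *ASPN* and *TGFBI*, 2 of 5 stellate cell or fibroblast markers, summed to 179 ± 20.6 CPM in CON, 173 ± 18.6 CPM in HOX without animal 1 and 91.3 CPM in HOX animal 1, and the pair went different ways. *TGFBI* was at 26.0 CPM in HOX animal 1, below every other liver, against 120 ± 17.0 CPM in CON and 95.2 ± 18.9 CPM in HOX without animal 1. *ASPN* was at 65.3 CPM in HOX animal 1, within the CON range of 38.1 to 69.3 CPM (mean 58.2 ± 9.64), and had 77.6 ± 10.2 CPM in HOX without animal 1. HOX animal 1 was thus the lowest liver for the hepatocyte sum, the hepatocyte markers listed above as lowest there, *CD163* and *TGFBI*. It was not the lowest for *ASPN*, *CD34*, *FGG*, *AGT* or *AFP*. Without the share over all tested genes, these places are not shown to be particular to a cell type. The part of cell makeup or of depth in the complex I levels was not tested.

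The genes most like the nuclear complex I genes were ranked by Pearson correlation with their mean log2 CPM over the 9 CON livers, among 423 other genes with a symbol, as a description. *MRPL34*, which encodes a protein of the mitochondrial ribosome, led with r = 0.970 and was also first among all 8574 other tested genes, 8 of which had r over 0.9. Among genes with a symbol it was followed by *INTS11* (r = 0.870), *ZNF575* (r = 0.869), *FAH* (r = 0.867) and *UBL5* (r = 0.859), which stood at places 24, 25, 28 and 34 among all tested genes. Without CON animal 6 these were 0.933 for *MRPL34*, 0.680 for *INTS11*, 0.838 for *ZNF575*, 0.833 for *FAH* and 0.722 for *UBL5*. The order differed over the 6 HOX livers without animal 1, with 0.940 for *UBL5*, 0.726 for *FAH*, 0.627 for *INTS11*, 0.272 for *MRPL34* and 0.192 for *ZNF575*. *MRPL34* had a log2 fold change of -0.16 ± 0.126 over 16 livers and -0.29 ± 0.096 without HOX animal 1. The remaining 4 genes moved less with that liver, from -0.23 ± 0.0779 to -0.23 ± 0.0796 for *INTS11*, from -0.43 ± 0.124 to -0.41 ± 0.131 for *ZNF575*, from -0.25 ± 0.0778 to -0.28 ± 0.0749 for *UBL5* and from -0.44 ± 0.149 to -0.33 ± 0.112 for *FAH*, which encodes the last enzyme of tyrosine breakdown. Symbols came only from the study's list of genes called between HOX and CON. The direction of these fold changes is therefore no independent evidence.

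How reads were assigned to genes, and whether strand was used, is not given in the sources used here. Reads of small subunit genes that have processed pseudogenes or overlap other genes are therefore uncertain, and no gene lengths of the build used were at hand. CPM is not corrected for length, so the most abundant gene of a list is the one with the most reads, and the distance between *ND4* and the nuclear genes bears only on how it differs between livers.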

How the data were processed

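RNA of 16 fetal livers was measured by sequencing of polyA-enriched libraries. Paired reads had been mapped with STAR 2.7.10b to the sheep build ARS-UI_Ramb_v1.0 (Ensembl genes), and the authors deposited whole-number counts of reads per gene without normalization or filtering. The counting rule is not given in the sources used here. Groups and sex came from the labels. Symbols came from the study's list, which pairs 438 of its 487 identifiers with one. The RefSeq gene table of ARS-UI_Ramb_v3.0 matched 0 identifiers, so planned descriptions of promoters and proteins were not run.

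A gene was tested if 8 or more livers had 250 or more of its reads (8580 genes), with edgeR 4.0.16 (TMM, quasi-likelihood test, robust=FALSE) in R 4.3.3, with Benjamini-Hochberg adjustment over all genes and calls at an adjusted *P* under 0.15. The study names DESeq2, which was run as an alternative (1.42.0), as was limma 3.58.1. Standard errors came from the coefficient and its F statistic. Log2 CPM used a prior count of 2. Exact permutation tests (two-sided) of correlations went through every order of the livers with numpy 2.4.6. No pair of libraries was a duplicate, since counts of any pair differed at least 63.2 times more than counting noise (chi-square per degree of freedom).

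The genes named are the 6 subunits, every member of the lists with an identifier, and the 5 genes with a symbol most like the subunits over CON livers. Members and lists were chosen with earlier results of these data known. Alternatives covered the test, scaling, read minimum, sex, animal number and livers left out.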

Additional observations from a re-analysis of the deposited data

Results flagged for a closer look

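HOX animal 1 was far from the other 6 HOX livers in log2 CPM for 5 of the 6 genes and for their mean. Each gap to the next liver was a larger share of the group's range than Dixon's 95% limit allows. For *NDUFA3* it had a log2 CPM of 6.29, with the other HOX livers between 4.66 and 5.34. For *NDUFA5* it had 4.80, with the others between 2.77 and 3.49. For *NDUFA7* the value was 5.35 against 3.75 to 4.33, and for *NDUFB5* it was 4.44 against 2.88 to 3.53. For *NDUFB8* the value was 6.41 against 5.73 to 5.96. The mean over the 6 genes was 5.48 in HOX animal 1 and 4.17 to 4.57 in the other HOX livers. *NDUFS4* in HOX, and each gene in CON, had no liver that far from the rest. Chance alone gives such a gap in about 1 of 20 groups, and 14 groups were examined. These 6 values come from 1 library and are not independent of each other. The share of all tested genes with such a gap is not given here. By log2 distance above the mean of the other HOX livers, HOX animal 1 stood at percentile 98.0 of tested genes for *NDUFA5*. The percentile was 96.8 for *NDUFA7*, 96.5 for *NDUFA3*, 96.3 for *NDUFB5*, 83.6 for *NDUFS4* and 82.4 for *NDUFB8*. HOX values also entered the choice of the genes, so nothing is read from the count.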

How the results depend on the processing

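The median log2 fold change of the 6 genes, -0.15 with 16 livers, was -0.32 by limma-voom with quality weights, -0.37 by DESeq2 without HOX animal 1, -0.40 in male fetuses and 0.023 in female fetuses. Leaving out 1 liver at a time gave -0.38 (without HOX animal 1) to -0.066. Alternatives added after seeing the data left out HOX animal 1 under other scalings and gave -0.37 (DESeq2 size factors), -0.36 (upper quartile) and -0.31 (total counts). With 16 livers *NDUFA5* was above 0 by DESeq2 (0.014), with no filter (0.012) and with the minimum reached in 9 livers (0.019), and leaving out 1 liver moved it between -0.36 and 0.12.

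Of all tested genes, 5 were called between HOX and CON by edgeR. The number was 237 by DESeq2, 146 by limma-voom, 523 by DESeq2 without HOX animal 1, 1 with total counts, 1 with no filter, 2 in male and 0 in female fetuses (451 at an unadjusted *P* under 0.05). Leaving out 1 liver gave 1 to 47 calls: 47 without HOX animal 5, 12 without HOX animal 1, 10 without CON animal 6, 8 without CON animal 2, 3 without CON animal 1, 2 without CON animals 3 or 8, and 1 without CON animals 4 or 9 or HOX animals 2, 3, 6 or 7. Without HOX animal 1 the added scalings gave 11, 9 and 9 calls, and female fetuses alone 0. The causes were not tested.

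With animal number as a replicate block over 14 livers, edgeR called 0 genes (757 at an unadjusted *P* under 0.05), and the median of the 6 genes was -0.21. Whether the numbers pair the livers was not tested. Correlations of same-numbered livers ran from -0.31 to 0.15, 3 of 7 above 0.1, and 1 HOX liver was closest to its own number.

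For sex, 2 genes were called by edgeR, 7 by DESeq2, 9 by DESeq2 without HOX animal 1 (added after seeing the data), 0 among CON livers (227 at an unadjusted *P* under 0.05), and 1 to 2 with 1 liver left out, 1 being the number without CON animals 2, 5, 6, 7 or 8 or HOX animal 2. The difference of *NDUFS4*, -0.0027, was 0.045 among CON livers, 0.070 by DESeq2 without HOX animal 1 and -0.05 to 0.079 with 1 liver left out: 0.010 without CON animal 1, 0.026 without CON animal 5, 0.036 without CON animal 6, 0.079 without HOX animal 1, 0.011 without HOX animal 3 and 0.018 without HOX animal 6. For the interaction, 0 genes were called by edgeR, 6 by DESeq2, 6 by DESeq2 without HOX animal 1, and 0 to 3 with 1 liver left out, 3 being without HOX animal 4. With 1 liver left out the interaction lay between -0.58 and 0.098 for *NDUFA7* and between -0.24 and 0.061 for *NDUFS4*, and was positive without HOX animal 1 in both, as by DESeq2 without that liver (0.086 and 0.050). No call of the 6 genes on sex or interaction appeared under any alternative run.

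Depth limits *NDUFB5* and *NDUFA5* most, at 171 and 205 reads in their lowest livers. With 9 against 7 livers, and 3 male HOX fetuses, the precision on sex is low, and a *P* that misses the threshold does not show equal levels.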
